A study of Homo sapiens with 8 samples.

Results

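Adhesion G protein-coupled receptors (adhesion GPCRs) were followed by taking every protein-coding gene whose symbol starts with ADGR, which gave 29 members of 58217 genes with a matched transcript, 19871 of them protein coding. All libraries came from oligodendrocyte precursor cells (OPCs) derived from H9, a human embryonic stem cell line, and kept for 2 days in OPC medium without SOX10 overexpression on a coated plate. The coating was Matrigel, a basement membrane extract, in the 2 control libraries (replicates 2 and 3), VN, the adhesive matrix protein vitronectin, in 3 libraries, and VNP2, a designed peptide derived from VN that carries its integrin-binding RGD motif, in the other 3. Per the study's methods, the peptide was fused to mussel adhesive protein and fixed to chemically activated plates. No such carrier or activation is described for VN or Matrigel, so their effects cannot be told apart from that of the peptide. The cells shared 1 genetic background, were expanded by passaging, and formed a mixed culture in which only some cells carry OPC markers. No label says whether the replicates of a substrate came from separate cultures, so the p-values measure only the spread between these libraries, which may be technical.

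Adhesion GPCRs join a long extracellular region, built of adhesion domains, to the membrane-spanning core of a G protein-coupled receptor. In most of them the GAIN domain cuts the protein in place, and the short stretch left at the new end, the tethered agonist, can activate the receptor when matrix or a neighbouring cell pulls on or binds the outer part. In the nervous system they are known for synapse formation (latrophilins and the ADGRB receptors), for keeping OPCs dividing (ADGRG1) and for myelination by Schwann cells (ADGRG6). The genes CELSR1 to CELSR3 encode adhesion GPCRs under other symbols and are given with the partner genes.

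Each library held between 37997896 and 39429453 estimated read counts, and 98.8 to 98.9% of them fell on transcripts that could be matched to a gene. VN replicate 1 stood apart from the other VN libraries: the median chi-square per gene was 2.25 and 2.62 against VN replicates 2 and 3 and 0.782 between those, where sampling noise alone gives 0.455. The other replicate pairs lay between 0.707 and 1.16. Of 7 OPC markers, 6 were measured and all 6 were higher on VNP2 than on Matrigel by edgeR, beside 7.45% of all genes tested. SOX10 held 20 estimated counts over all libraries. Summed TPM (Salmon's transcript abundance, scaled for library size and transcript length) of the OPC markers ranged from 214.7 to 216.7 on Matrigel, 282.3 to 295.8 on VN and 310.3 to 334.2 on VNP2. That of 8 neuron markers ranged from 225.5 to 228.9, 318.9 to 331.7 and 354.5 to 383.1 in the same order. For 10 radial glia and astrocyte markers it ranged from 3253.3 to 3334.0, 2663.6 to 2736.3 and 2978.1 to 3052.2. PTPRZ1 held by far the most counts of the OPC markers, 141121.6 over all libraries, against 15749.1 for OLIG2, the next. On VNP2 against Matrigel, OLIG2 rose by 0.23 on the log2 scale and PTPRZ1 by 0.65. Fewer cells of a type and less RNA per cell cannot be told apart in such bulk libraries, and this holds for every member below.

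The promoters of a pair of members are shown, since these genes, ADGRG6 and ADGRL4, had the lowest levels relative to Matrigel of all members on VN. The sequences are from RefSeq on GRCh38.p14, read 5′ to 3′ on the strand of the gene. For ADGRG6, chr6:142301757-142301853 (plus strand) covers the 97 bases before the first annotated start and has a GC content of 78.4%. For ADGRL4, chr1:79006731-79006980 (minus strand) covers 250 bases before the start with a GC content of 64.0%. Capitals mark matches, on either strand, to 4 short motifs. The first is the core letters bound by TEAD factors, GGAATG. The AP-1 motif was searched as TGANTCA. For the GC box the letters were GGGCGG, and those of the TATA box were TATAAA.
ADGRG6 promoter: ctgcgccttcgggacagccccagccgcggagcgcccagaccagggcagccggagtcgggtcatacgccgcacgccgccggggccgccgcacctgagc
ADGRL4 promoter: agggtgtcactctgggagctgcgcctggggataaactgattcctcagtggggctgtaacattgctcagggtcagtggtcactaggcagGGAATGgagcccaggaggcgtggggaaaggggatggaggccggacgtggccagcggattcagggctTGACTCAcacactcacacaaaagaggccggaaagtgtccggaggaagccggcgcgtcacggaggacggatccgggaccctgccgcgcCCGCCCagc
The ADGRL4 window held 1 TEAD, 1 AP-1 and 1 GC box match and no TATA match. The ADGRG6 stretch held none of the 4, and its full 250-base window held 1 GC box. Of 35116 promoter windows of 250 bases in the reference, 11.9% held the TEAD letters, 6.57% the AP-1 letters, 42.6% the GC box and 10.7% the TATA letters. Windows could be matched for 19 members, 35 windows in all, and 3, 4, 14 and 1 of these held the motifs in that order.

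The mean levels per length fell into a high, a middle and a low range. The highest mean TPM over the 8 libraries was that of ADGRL2, a latrophilin, at 78.1 (range 72.1 to 82.4). It was followed by ADGRG1 at 68.7 TPM, the Usher syndrome gene ADGRV1 at 65.6 TPM and ADGRA3 at 60.1 TPM, and the ranges of neighbours in this order overlapped. ADGRL3 (41.5 TPM), ADGRL1 (25.0 TPM), ADGRB2 (14.5 TPM) and ADGRA2 (6.25 TPM) then followed as steps. No library of one reached the range of the next in this order by mean. ADGRB3 (3.81 TPM), ADGRA1 (3.53 TPM), ADGRG6 (3.41 TPM) and ADGRB1 (2.33 TPM) made up the middle range. Of these, ADGRG6 spanned 0.583 to 11.7 TPM, the largest ratio of highest to lowest library among members with a mean above 1 TPM. Its Matrigel libraries, at 10.5 and 11.7 TPM, lay above every library of ADGRA2, which reached 6.69 TPM. Every other member had a mean below 1 TPM.

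**Figure D1:**
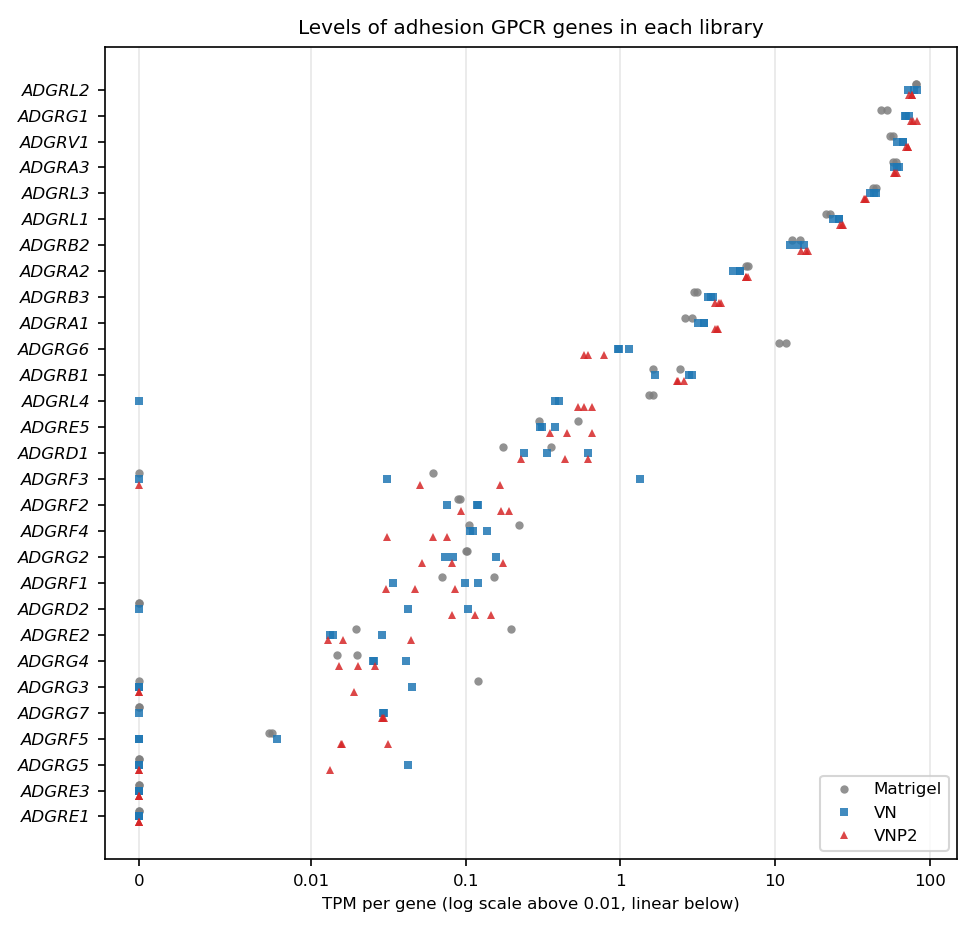
TPM (horizontal axis, logarithmic above 0.01) of the 29 adhesion GPCR genes, 1 point per library (grey circles Matrigel, blue squares VN, red triangles VNP2), ordered by mean. The Matrigel libraries of ADGRG6 lie at the right of its row, up to 11.7 TPM, and those on VNP2 at the left, down to 0.583 TPM.

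Of the 29 members, 18 held enough counts to be tested among 18201 genes, and 12 of these had a mean of at least 100 normalized counts (estimated counts scaled for library size and transcript length). In the test of all 3 substrates, edgeR's quasi-likelihood test with Benjamini-Hochberg adjustment over all genes at 0.05, 10 of the 18 differed, beside 19.3% of all genes tested. They were ADGRA1, ADGRA2, ADGRB3, ADGRG1, ADGRG6, ADGRL1, ADGRL2, ADGRL3, ADGRL4 and ADGRV1. Among abundant genes, those with a mean of at least 100, 9 of 12 members and 24.0% of all 12996 genes were called. Above that floor the members and the other genes were not matched on level. Without either Matrigel replicate 5 members were called, and without VN replicate 1 the number stayed at 10.

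On VN, 4 members differed from Matrigel (15.2% of all genes tested did), of which ADGRG1 was higher (5.81% of genes) and ADGRA2, ADGRG6 and ADGRL4 were lower (9.41%). For 9 members the VN and Matrigel libraries did not overlap, 4 above and 5 below, beside 44.4% of all genes (21.7% above and 22.7% below), a share close to the background. Among abundant genes 3 of 12 members and 19.4% of genes were called. The median log2 fold change over the 18 members was 0.044, against 0.008 over all genes. Without VN replicate 1 the count was 5, with ADGRV1 added, and without either Matrigel replicate it was 2.

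On VNP2, 8 members differed from Matrigel, beside 16.6% of all genes tested. Higher were ADGRA1, ADGRB3, ADGRG1, ADGRL1 and ADGRV1 (7.45% of genes), and lower were ADGRG6, ADGRL2 and ADGRL3 (9.13%). The libraries of 10 members did not overlap, 5 in each direction, beside 48.1% of all genes (23.1% above and 25.0% below). All 8 belong to the 12 abundant members, and 20.5% of abundant genes were called. The median log2 fold change was 0.192 over the members and 0.003 over all genes. The VN and VNP2 comparisons share the 2 Matrigel libraries and are therefore not independent.

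Between the designed peptide with its carrier and the full protein, VNP2 against VN, 4 members differed (5.18% of all genes). ADGRA1 and ADGRV1 were higher on VNP2 (3.07% of genes) and ADGRG6 and ADGRL3 were lower (2.10%). Libraries of 9 members did not overlap, 7 above and 2 below, beside 23.5% of all genes (12.2% above and 11.2% below). All 4 are among the 12 abundant members, where 6.33% of genes were called. This count depended on single libraries: it was 0 without VN replicate 2, VNP2 replicate 1 or VNP2 replicate 2, and 6 without VN replicate 1, where ADGRA2 and ADGRG1 were added.

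**Figure D2:**
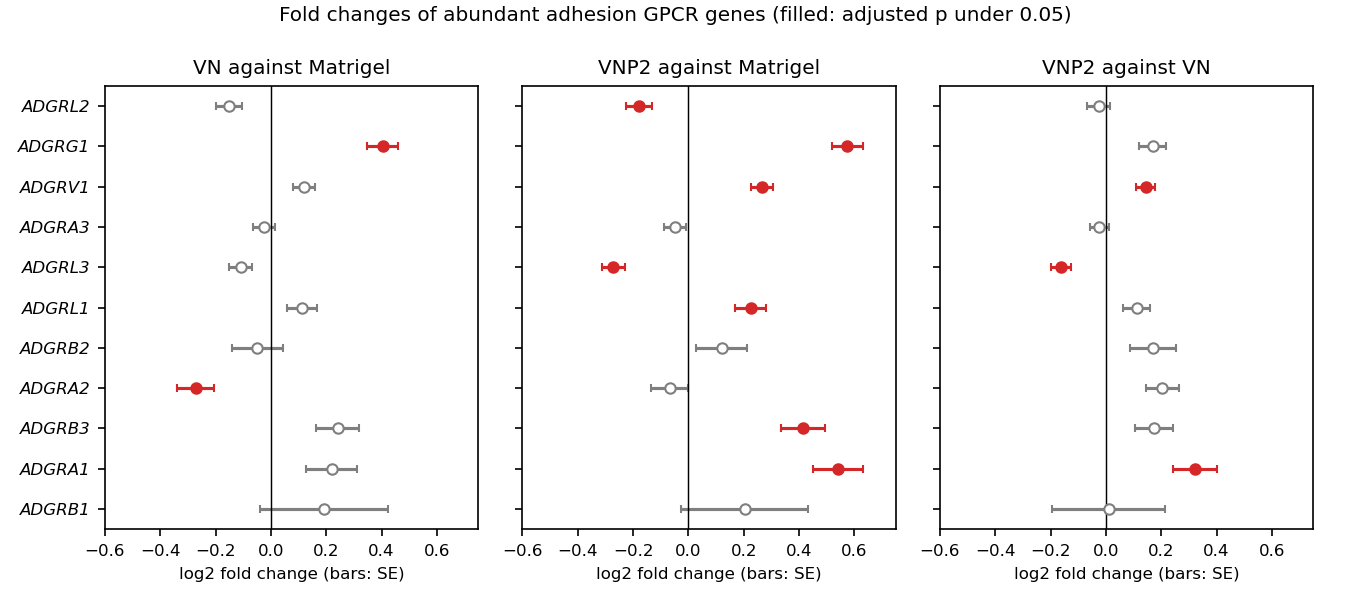
Log2 fold change (horizontal axis, bars are 1 standard error) of 11 adhesion GPCR genes with a mean of at least 100 normalized counts in the 3 pairwise comparisons, ADGRG6 left out for its larger scale. Filled red points have an adjusted p under 0.05 by edgeR, 2 on VN against Matrigel, 7 on VNP2 against Matrigel and 3 on VNP2 against VN.

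The largest change of any member was the fall of ADGRG6 (ENSG00000112414, GRCh38 chr6:142301854-142446266, plus strand), which encodes the receptor that Schwann cells need to start myelinating and that binds type IV collagen, laminin and prion protein. Its normalized counts were 1273.7 and 1412.2 on Matrigel, 132.9, 111.4 and 109.7 on VN, and VNP2 gave 70.9, 67.3 and 90.2. The 3 groups did not overlap, with every Matrigel library far above all others and every VNP2 library below every VN library. ADGRG6 fell on VN by 11.4-fold (log2 fold change -3.51, SE 0.117, edgeR adjusted p = 7.26e-08). On VNP2 it fell 17.7-fold (log2 fold change -4.15, SE 0.122, edgeR adjusted p = 1.68e-08). It was also lower on VNP2 than on VN, by 1.55-fold (log2 fold change -0.64, SE 0.135, edgeR adjusted p = 0.0226), and this last call was lost without VN replicate 2, VNP2 replicate 1 or VNP2 replicate 2.

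Of the ADGRG6 counts, 3 protein-coding transcripts carried most, 66.3% on ADGRG6-203, 21.0% on ADGRG6-202 and 9.62% on ADGRG6-204. On Matrigel the split was stable, with 883.1 and 882.8 estimated counts on ADGRG6-203 in replicates 2 and 3. On VN, ADGRG6-203 held 111.8 estimated counts in replicate 1 and 0 in replicates 2 and 3, where the counts were assigned to other transcripts. The isoform shares at these low counts are therefore uncertain, while the sum per gene was stable.

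Markers of Schwann cells and neural crest did not move down with ADGRG6. Their summed TPM, over 8 genes of which 6 were tested, ranged from 46.1 to 47.1 on Matrigel, 45.9 to 50.8 on VN and 58.2 to 60.9 on VNP2. Of these markers 0 were called on VN, beside 15.2% of all genes, and 2 were higher on VNP2 by edgeR, beside 7.45%. Among 8 mesenchymal markers, 3 rose (5.81% of all genes) and 2 fell (9.41%) on VN. On VNP2, 4 of these markers rose (7.45% of all genes) and 2 fell (9.13%). Their summed TPM ranged from 415.1 to 425.2 on Matrigel, 466.6 to 509.4 on VN and 378.3 to 412.3 on VNP2, and their part in the ADGRG6 result was not tested.

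The other member with a low level off Matrigel was ADGRL4 (ENSG00000162618, GRCh38 chr1:78889764-79006718, minus strand), also known as ELTD1, a receptor of endothelial cells in growing vessels. It was rare, at 245.7 estimated counts over 8 libraries, with normalized counts of 47.8 and 44.3 on Matrigel, 10.8, 0 and 11.0 on VN, then 18.0, 13.9 and 13.6 on VNP2. Both Matrigel libraries lay above all others. ADGRL4 fell on VN (log2 fold change -2.49, SE 0.519, edgeR adjusted p = 0.00988), and the value on VNP2 did not pass the test (log2 fold change -1.48, SE 0.570, edgeR adjusted p = 0.113). The call on VN was lost without either Matrigel replicate.

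The ADGRL4 values differed from those in the authors' own gene table. The sum over matched transcripts held a share of 0.491 of the value in that table, made with a newer annotation, and its effective length was only 265.9 and 269.1 bases in VNP2 replicates 2 and 3 against 2230.7 bases in replicate 1. There the normalized counts were 76.6 and 79.4 on Matrigel, 18.3, 16.5 and 16.6 on VN, and VNP2 gave 30.9, 40.6 and 45.2. The 3 groups did not overlap in that table, where the VN libraries were the lowest. By limma on these values (log2 of the value plus 1), ADGRL4 was lower on VN (log2 fold change -2.12, SE 0.150, adjusted p = 0.000797) and on VNP2 (log2 fold change -1.001, SE 0.150, adjusted p = 0.00818) than on Matrigel. For VNP2 against VN that table gave a log2 fold change of 1.12 (SE 0.134, limma adjusted p = 0.0104), whereas edgeR gave 1.01 on the matched counts (SE 0.609, adjusted p = 0.402) and -0.09 without length offsets (SE 0.925, adjusted p = 0.969). None of the other alternatives called ADGRL4 between VN and VNP2, and no direction is drawn there.

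Endothelial markers were mixed beside ADGRL4. Of 7 listed, 5 were tested, 2 were lower on both VN and VNP2 than on Matrigel by edgeR, and 0 were higher. Of all genes, 9.41% were lower on VN and 9.13% on VNP2, and 5.81% and 7.45% were higher. The vascular receptor gene TEK had normalized counts of 353.8 and 298.7 on Matrigel, 188.7, 143.9 and 159.3 on VN, then 112.6, 147.0 and 121.9 on VNP2. CDH5, the cadherin of endothelial junctions, had 53.6 and 37.1 on Matrigel and between 9.48 and 21.2 on VN and VNP2. For both genes the Matrigel libraries lay above all others, and the edgeR log2 fold changes were -0.99 on VN and -1.36 on VNP2 for TEK and -1.92 and -1.60 for CDH5. The other 3 tested markers, named after their values were seen, were not called. CLDN5 had means of 195.5, 251.7 and 243.3 normalized counts on Matrigel, VN and VNP2 (log2 fold changes 0.36 and 0.32 from Matrigel). ERG had 8.36, 20.3 and 10.02 normalized counts in the same order (1.29 and 0.26), and EGFL7 had 404.6, 317.3 and 347.4 (-0.35 and -0.22). The defining markers PECAM1 and VWF failed the filter, with totals of 36 and 64 estimated counts. Summed TPM of the 7 markers overlapped between the substrates, at 29.1 to 30.5 on Matrigel, 24.5 to 32.7 on VN and 27.3 to 29.6 on VNP2, and their part in the ADGRL4 result was not tested.

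**Figure D3:**
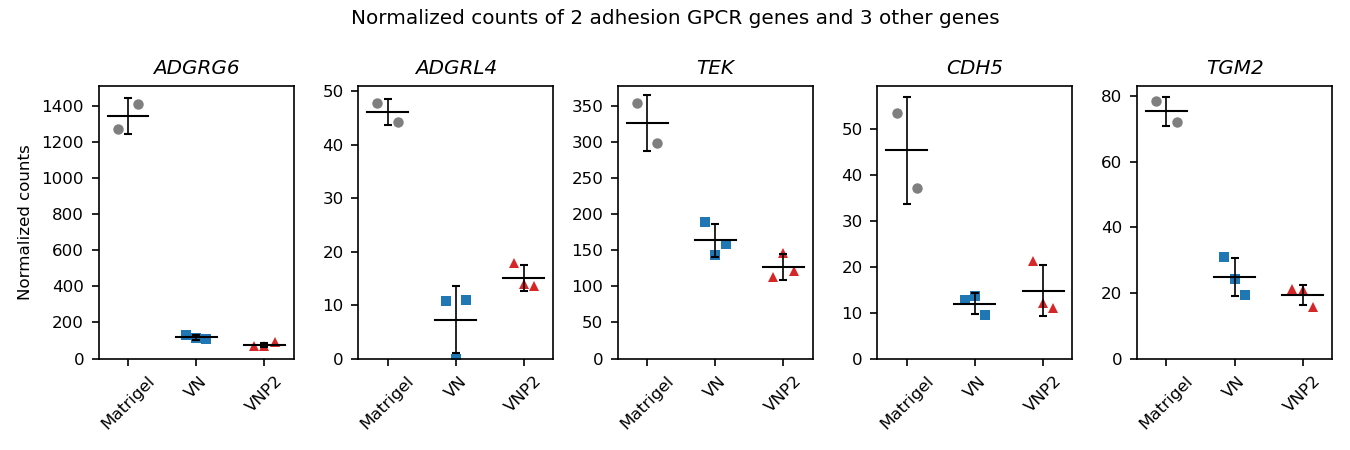
Normalized counts (vertical axis, starting at 0) of ADGRG6, ADGRL4, TEK and CDH5 (the 2 of 5 tested endothelial markers that were called), and the transglutaminase gene TGM2 in each library, with the mean (line) and SD (bars, n = 2 on Matrigel and 3 on VN and VNP2). In each panel both Matrigel points lie above all VN and VNP2 points. The ADGRL4 points of VNP2 replicates 2 and 3 rest on 3.47 and 3.27 estimated counts.

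Among the abundant members, ADGRG1 (ENSG00000205336, GRCh38 chr16:57610652-57665580, plus strand) had the smallest adjusted p of those that rose. It encodes GPR56, which keeps OPCs dividing and acts through RhoA. Its normalized counts were 2683.4 and 2883.9 on Matrigel, 3864.4, 3553.6 and 3628.2 on VN, and VNP2 gave 4126.3, 3959.2 and 4340.6. All VN libraries lay above the Matrigel libraries and all VNP2 libraries above the VN libraries. ADGRG1 rose on VN by 1.32-fold (log2 fold change 0.40, SE 0.056, edgeR adjusted p = 0.000875) and on VNP2 by 1.49-fold (log2 fold change 0.57, SE 0.056, edgeR adjusted p = 5.57e-05). The step from VN to VNP2 did not pass the test (log2 fold change 0.17, SE 0.049, edgeR adjusted p = 0.0801). It did without VN replicate 1 (edgeR adjusted p = 0.0266). Its counts fell mainly on the transcripts ADGRG1-203 (53.1, 51.3 and 52.6% on Matrigel, VN and VNP2) and ADGRG1-255 (34.8, 36.9 and 35.4%), so that the make-up hardly moved while the sum rose.

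ADGRV1 (ENSG00000164199, GRCh38 chr5:90529344-91164437, plus strand) encodes a very large receptor of sensory hair bundles whose loss causes Usher syndrome, and it held the most counts of all members. It had normalized counts of 11856.6 and 12382.5 on Matrigel, 12635.5, 13450.6 and 13458.1 on VN, then 14216.6, 14808.3 and 14683.6 on VNP2. The 3 groups did not overlap, with Matrigel lowest and VNP2 highest. ADGRV1 was higher on VNP2 than on Matrigel (log2 fold change 0.27, SE 0.040, edgeR adjusted p = 0.00116) and than on VN (log2 fold change 0.14, SE 0.035, edgeR adjusted p = 0.0441). On VN against Matrigel the log2 fold change was 0.12 (SE 0.040, edgeR adjusted p = 0.0668).

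Within ADGRV1 the transcripts moved unequally. The main protein-coding transcript ADGRV1-201 held 62.5, 62.9 and 62.5% of the counts on Matrigel, VN and VNP2. The protein-coding ADGRV1-202 held 8.33, 10.6 and 12.9%, and the retained-intron transcript ADGRV1-211 held 10.5, 7.52 and 5.70%. Per library, the VN and VNP2 shares of both transcripts overlapped. ADGRV1-202 held 12.4% in VN replicate 2 and 11.2% in VNP2 replicate 1. ADGRV1-211 held 5.63% in VN replicate 2 and 6.57% in VNP2 replicate 3. These shares are estimates that divide shared reads, and were not tested.

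ADGRA1 (chr10:133070929-133131675, plus strand), a receptor of the central nervous system without a settled ligand, had 248.6 and 271.0 normalized counts on Matrigel, 317.5, 282.0 and 308.4 on VN, and VNP2 gave 381.4, 370.0 and 382.6. Its groups ranked in the same order without overlap. It was 1.45-fold higher on VNP2 than on Matrigel (log2 fold change 0.54, SE 0.091, edgeR adjusted p = 0.00239) and 1.25-fold higher than on VN (edgeR adjusted p = 0.0461). On VN against Matrigel the log2 fold change was 0.22 (SE 0.092, edgeR adjusted p = 0.138). The calls of ADGRV1 and ADGRA1 on VNP2 against VN were lost whenever a library other than VN replicate 1 was left out. Both were also lost with only the libraries of the pair. The call of ADGRA1 was lost by DESeq2 and without the filter on low counts as well. That of ADGRV1 was lost without length offsets and by limma on the authors' normalized counts.

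ADGRB3 (chr6:68635367-69389511, plus strand), a receptor of synapses that binds C1q-like proteins, had 368.5 and 380.8 normalized counts on Matrigel, 451.0, 454.6 and 422.5 on VN, then 505.0, 474.9 and 518.1 on VNP2. No library overlapped another group. ADGRB3 rose on VNP2 by 1.33-fold (log2 fold change 0.41, SE 0.078, edgeR adjusted p = 0.00454), and on VN the value was 0.24 on the log2 scale (SE 0.078, edgeR adjusted p = 0.0652). Neuron markers moved in the same direction as ADGRA1 and ADGRB3: 5 of 8 were higher on VN, 7 of 8 on VNP2 and 0 lower on either. OPC markers did so too, with 3 of the 6 tested higher on VN, 6 on VNP2 and 0 lower on either. Of all genes, 5.81% were higher on VN and 7.45% on VNP2. The part of either list in these results was not tested.

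Of the other ADGRB genes, ADGRB2 had 1302.7 and 1470.3 normalized counts on Matrigel, 1488.9, 1194.2 and 1336.4 on VN, and VNP2 gave 1526.1, 1413.9 and 1579.0, and all groups overlapped. Its log2 fold change on VNP2 against Matrigel was 0.12, with a 95% interval from -0.06 to 0.30. ADGRB1, a receptor for uptake of dying cells, had group means of 199.4 ± 53.7 (SD, n = 2), 228.0 ± 63.6 (n = 3) and 228.0 ± 12.9 (n = 3) normalized counts on Matrigel, VN and VNP2. Neither gene was called in any pair.

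The 3 latrophilins, receptors at synapses for teneurins, FLRT proteins and neurexins, moved in different directions on VNP2. ADGRL1 (chr19:14147743-14206187, minus strand) had 2821.2 and 2641.9 normalized counts on Matrigel, 3083.2, 3022.6 and 2752.7 on VN, then 3140.5, 3250.2 and 3184.8 on VNP2. Only its VNP2 libraries all lay above Matrigel, and it was 1.17-fold higher there (log2 fold change 0.23, SE 0.055, edgeR adjusted p = 0.0187). ADGRL2 (chr1:81306160-81992436, plus strand) had 8502.0 and 8458.0 normalized counts on Matrigel, 7194.4, 7693.5 and 8008.2 on VN, and VNP2 gave 7650.7, 7278.2 and 7560.8. Both Matrigel libraries were above all others, and ADGRL2 fell on VNP2 by 1.13-fold (log2 fold change -0.18, SE 0.046, edgeR adjusted p = 0.0243), while VN gave -0.15 (SE 0.046, edgeR adjusted p = 0.0506). The calls of ADGRL1 and ADGRL2 were lost when VNP2 replicate 2, VNP2 replicate 3 or Matrigel replicate 3 was left out, and that of ADGRL2 also without Matrigel replicate 2.

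ADGRL3 (chr4:61201258-62078335, plus strand) had 5874.8 and 5527.2 normalized counts on Matrigel, 5135.7, 5451.3 and 5267.6 on VN, then 4674.8, 4700.1 and 4799.0 on VNP2. Here the order was the reverse of that of ADGRV1, again without overlap. ADGRL3 fell on VNP2 relative to Matrigel (log2 fold change -0.27, SE 0.041, edgeR adjusted p = 0.00126) and relative to VN (log2 fold change -0.16, SE 0.037, edgeR adjusted p = 0.0329), and the latter call was lost when any VN or VNP2 library other than VN replicate 1 was left out. Its counts were spread over ADGRL3-215 (36.5%), ADGRL3-201 (28.1%), ADGRL3-217 (18.8%) and ADGRL3-207 (13.1%), whereas ADGRL1-201 and ADGRL2-201 alone held 74.9% and 75.7% of their genes.

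ADGRA2 (chr8:37784191-37844896, plus strand), also known as GPR124, the partner of RECK in WNT7 signalling of brain vessels, was the only abundant member besides ADGRG6 and ADGRG1 called on VN against Matrigel. It had 952.4 and 985.4 normalized counts on Matrigel, 840.8, 826.3 and 738.7 on VN, and VNP2 gave 921.5, 942.8 and 908.0. The VN libraries were the lowest, and those on VNP2 lay close below Matrigel. ADGRA2 fell on VN by 1.21-fold (log2 fold change -0.27, SE 0.067, edgeR adjusted p = 0.0218), a call lost without Matrigel replicate 2, Matrigel replicate 3 or VN replicate 3. On VNP2 the log2 fold change from Matrigel was -0.07, with a 95% interval from -0.20 to 0.06.

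ADGRA3, a relative of ADGRA2 that acts in planar polarity, had 5204.4 and 5414.0 normalized counts on Matrigel, 5124.6, 5360.6 and 5179.8 on VN, then 5289.4, 5104.7 and 5018.2 on VNP2. All groups overlapped. The 95% interval of its log2 fold change from Matrigel was -0.10 to 0.05 for VN, and for VNP2 it was -0.13 to 0.03.

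**Figure D4:**
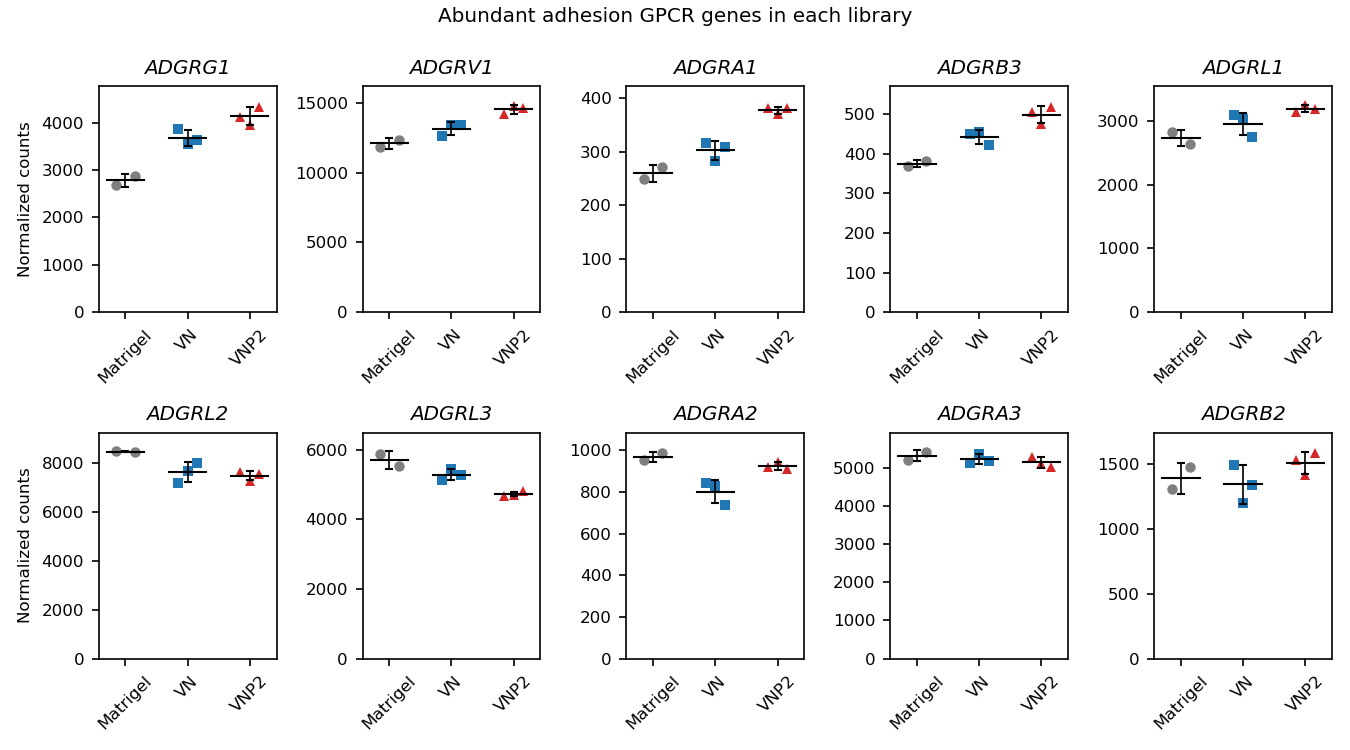
Normalized counts (vertical axes, each starting at 0) of 10 abundant adhesion GPCR genes in each library, with the mean (line) and SD (bars, n = 2 on Matrigel and 3 on VN and VNP2). The means of ADGRG1, ADGRV1, ADGRA1, ADGRB3 and ADGRL1 are ordered upward from Matrigel through VN to VNP2, those of ADGRL2, ADGRL3 and ADGRA3 downward, and those of ADGRA2 and ADGRB2 are lowest on VN, with ADGRA3 and ADGRB2 not called in any pair.

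The other 5 members that entered the test were low and none was called. ADGRE5, the leukocyte receptor CD97, ranged from 18.2 to 39.6 normalized counts over the 8 libraries and ADGRD1 from 11.2 to 37.6. ADGRF2 ranged from 7.37 to 18.6 normalized counts and ADGRG2 from 4.92 to 16.5. ADGRF3 had 73.9 normalized counts in VN replicate 1, the library that stands apart, and between 0 and 9.13 in all others, with a share of 0.572 of the value in the authors' table. Its fold changes rest on that library and on 42.4 estimated counts in total.

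The remaining 11 members failed the filter and are reported as low. ADGRF4 held 56 estimated counts over the 8 libraries, ADGRF1 and ADGRG4 37 each, and ADGRE2 16.6. ADGRF5 held 11, ADGRD2 10, ADGRG3 and ADGRG7 5 each and ADGRG5 4, while ADGRE1 and ADGRE3 held 0. ADGRE1 to ADGRE3, ADGRG3 and ADGRG5 are known from blood cells, and none of 8 leukocyte and microglia markers held enough counts to be tested (2 to 39 estimated counts each). ADGRF2 and ADGRF4 overlap on the same strand of chromosome 6, so reads in the shared stretch cannot be told apart by strand.

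The known ligands and effectors of these receptors were listed by receptor, and their medians can be set beside the all-gene medians of 0.008 on VN and 0.003 on VNP2. Of all genes tested, 5.81% rose and 9.41% fell on VN, and 7.45% rose and 9.13% fell on VNP2. All 10 latrophilin ligands were tested, 2 of which rose on VN and 5 on VNP2 with 0 falling, and their medians were 0.27 and 0.57. FLRT2 had a log2 fold change of 0.51 on VN (SE 0.090, edgeR adjusted p = 0.00414) and of 0.69 on VNP2 (SE 0.090, edgeR adjusted p = 0.000439). TENM2, a teneurin, had 0.67 on VNP2 (SE 0.200, edgeR adjusted p = 0.0443). NRXN3, a neurexin gene, was higher on VN than on Matrigel (0.42) and lower on VNP2 than on VN (-0.75, SE 0.089, edgeR adjusted p = 0.000837). Summed TPM of these ligands was 113.2 to 113.4 on Matrigel, 123.1 to 132.0 on VN and 121.3 to 130.7 on VNP2.

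Of 12 ligand genes of ADGRG1 and ADGRG6, all tested, 2 rose (5.81% of all genes) and 4 fell (9.41%) on VN. On VNP2, 2 rose (7.45% of all genes) and 6 fell (9.13%). The medians were -0.03 on VN and -0.22 on VNP2. TGM2, the transglutaminase that activates ADGRG1 on OPCs, fell most, from 75.3 ± 4.50 (SD, n = 2) normalized counts on Matrigel to 24.8 ± 5.85 (n = 3) on VN and 19.2 ± 3.08 (n = 3) on VNP2. Its log2 fold changes were -1.60 (SE 0.256, edgeR adjusted p = 0.00234) and -1.96 (SE 0.262, edgeR adjusted p = 0.000508). COL3A1, the collagen III ligand of ADGRG1, was named after its values were seen, and was higher on VNP2 than on Matrigel by 0.28 (SE 0.037, edgeR adjusted p = 0.000502).

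Ligands of ADGRG6 were lower or higher by gene. The prion protein gene PRNP fell by 0.49 and 0.45 on the log2 scale on VN and VNP2 (edgeR adjusted p = 0.000174 and 0.000215). LAMB1, a laminin beta chain, had -0.68 and -0.46. LAMA2, the alpha chain of the laminin of muscle and peripheral nerve, had 0.05 on VN and 0.66 on VNP2 (SE 0.078, edgeR adjusted p = 0.000223 on VNP2).

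**Figure D5:**
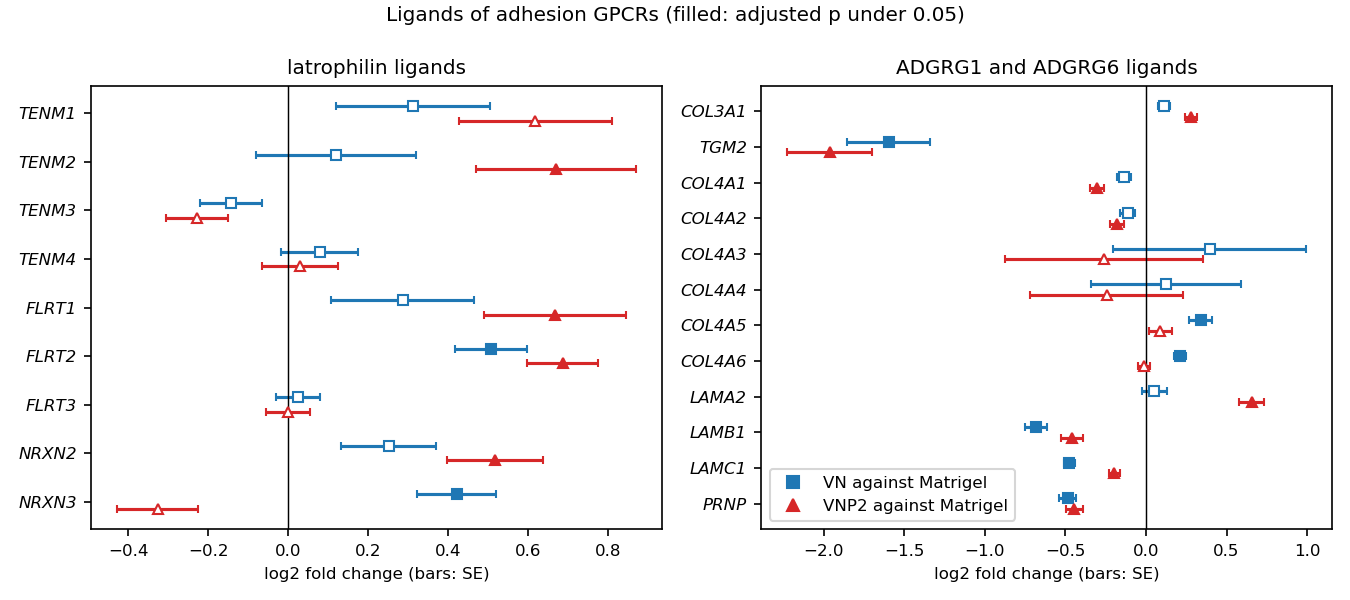
Log2 fold change against Matrigel (horizontal axis, bars are 1 standard error) of latrophilin ligands reported here (left) and of ADGRG1 and ADGRG6 ligands (right) on VN (blue squares) and VNP2 (red triangles). Filled points have an adjusted p under 0.05 by edgeR, and TGM2 lies farthest to the left at -1.60 and -1.96.

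Partners of the other receptors are set beside the 15.2% of all genes called on VN and the 16.6% called on VNP2. Of 7 ADGRA2 partners 0 were called on VN and 3 were higher on VNP2, namely WNT7B (1.16 on the log2 scale), LRP5 (0.36) and LRP6 (0.18). Of 9 ADGRB ligands and effectors tested, 0 were called on VN and 2 were higher on VNP2, both C1q-like ligands (C1QL3 0.85, C1QL4 0.64). In the ADGRV1 complex of stereocilia, 2 of 4 tested genes were higher on VN and on VNP2. MYO7A, a motor protein gene, had 0.88 on VN and 1.05 on VNP2 from a low level of 53.2 normalized counts on Matrigel. THY1, a ligand of ADGRE5, was higher on VNP2 than on VN (0.50, SE 0.082, edgeR adjusted p = 0.00578), and CD55 was not called in any pair.

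Of 14 genes for G proteins and the RhoA arm, the VN comparison called 1 up (5.81% of all genes) and 2 down (9.41%). The VNP2 comparison called 3 up (7.45% of all genes) and 1 down (9.13%). These counts are small and were not tested as a set. The inhibitory G protein gene GNAI1 was higher on VNP2 than on Matrigel (0.44) and than on VN (0.53, SE 0.045, edgeR adjusted p = 0.000116). GNAO1, the main neuronal G protein, was higher on VN (0.31) and on VNP2 (0.39), and ARHGEF1, an activator of RhoA, was lower on both (-0.28 and -0.31). GNA12 and GNA13, the G proteins that link adhesion GPCRs to RhoA, were not called in any pair.

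Among the CELSR genes, relatives in planar cell polarity, CELSR1 was lower on VNP2 than on Matrigel (-0.47, SE 0.041, edgeR adjusted p = 2.46e-05) and than on VN (-0.38, SE 0.037, edgeR adjusted p = 0.000267). CELSR3 was higher on VN (0.42) and on VNP2 (0.51), and CELSR2, the most abundant at 9376.6 ± 267.6 normalized counts on Matrigel (SD, n = 2), was not called in any pair.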

How the data were processed

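RNA of H9-derived OPCs on Matrigel (2 libraries), VN (3) and VNP2 (3) was poly(A) selected and sequenced from stranded libraries. Per the labels and the study's methods, the authors trimmed reads with Trim Galore and quantified them with Salmon against GENCODE 32 (GRCh38.p13). The deposited tables per library hold Salmon's estimated counts, TPM and effective lengths per transcript, and 1 deposited table holds gene signal as normalized counts made by the authors with DESeq2 1.27.12. Transcripts were matched here to genes by identifier in GENCODE 29, the release at hand (205225 of 226608 transcripts), and estimated counts were summed per gene and rounded, with length offsets in the manner of tximport.

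Genes passing filterByExpr (minimum count 10, minimum total 15) were fitted over all 8 libraries with TMM factors and edgeR 4.0.16 quasi-likelihood tests (R 4.3.3), two-sided for pairs, with Benjamini-Hochberg adjustment over 18201 genes and a threshold of 0.05. Libraries held 37997896 to 39429453 counts, and the common dispersion was 0.0037. On simulated data for VNP2 against Matrigel with 17907 genes, 178 of 198 changed genes and 15 unchanged genes were called. The simulation gave all genes the same dispersion and all changed genes the same size of change, up or down. It used no length offsets, so its counts do not carry over to changes of other size or to genes of varying effective length. Alternatives were DESeq2 1.42.0, other factors, filters and offsets, a replicate block, only the libraries of a pair, each library left out, and limma 3.58.1 on log2 of the authors' normalized counts plus 1.

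Samples were grouped by their titles. Members and lists were chosen with earlier results of these data known. A member was described with every library's value if called or among the 8 highest mean TPM, and at most 4 genes per list were named, those called with the largest fold change. Same-numbered libraries were checked for pairing: the correlations of their deviations ran from -0.112 to 0.14, so the numbers were not taken to pair samples. Protein sequences and Matrigel replicate 1 were not analysed here, and some listed genes are not reported by name here.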

Additional observations from a re-analysis of the deposited data

How the results depend on the processing

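Of 16 alternatives, those by DESeq2 and by limma on the authors' table change the tool together with its normalization, and the latter also the annotation and filter. None of the 16 called member values changed direction in those that gave a value (14 for ADGRL4 on VN, all 16 for the others), and 8 kept their call in all 16: ADGRG6 and ADGRG1 on VN and VNP2 against Matrigel, and ADGRA1, ADGRB3, ADGRL3 and ADGRV1 on VNP2 against Matrigel. Of the 38 uncalled values, 7 were called under some alternative and 15 changed sign under some alternative, among them ADGRL4 on VNP2 against VN. With 1 library left out at a time, the number of members called ranged from 5 to 10 across the 3 substrates, 2 to 5 on VN against Matrigel, 6 to 9 on VNP2 against Matrigel and 0 to 6 on VNP2 against VN. The lowest counts on VN (2) and across the substrates (5) came without either Matrigel replicate, which leaves a lone Matrigel library assumed to vary like the other groups. On VNP2 against VN the 4 calls became 2 without length offsets, 1 with only the libraries of the pair and 2 by limma on the authors' normalized counts, and the cause was not tested. By DESeq2 the count stayed at 4, but ADGRA1 lost its call there and ADGRG1 gained one. With the replicate number as a block, 9 members were called across the substrates, 5 on VN against Matrigel, 8 on VNP2 against Matrigel and 5 on VNP2 against VN. The block added ADGRV1 on VN (log2 fold change 0.145) and ADGRG1 on VNP2 against VN (0.17). The numbers are not known to mark shared cultures. ADGRL4 and the 5 other low members tested hold few counts a library, and their effective lengths also vary, for ADGRD1 from 1372.0 to 4597.8 bases. The SE of ADGRD1 on VN against Matrigel was 0.543 and, without length offsets, 0.298. With groups of 2 and 3 libraries, no test for outlying samples was made.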
